A study of Mus musculus with 6 samples.

Results

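The nuclear-encoded subunits of oxidative phosphorylation (OXPHOS) were examined in jejunal intestinal epithelial cells (IEC) that had lost the histone deacetylases Hdac1 and Hdac2. Members were the genes whose symbol starts with Ndufa, Ndufb, Ndufc, Ndufs or Ndufv and a digit, the 4 Sdh subunit genes, and the genes whose symbol starts with Uqcr, with Cox and a digit from 4 to 8, or with Atp5. This rule used the symbols and no measured value, and it found 85 of the 19616 genes in the count table. By name, 37 belonged to complex I, 4 to complex II, 8 to complex III, 15 to complex IV and 21 to complex V. The annotation lists 81 of them as protein-coding and 4 as pseudogenes of complex V genes. The control group held 3 wild-type mice, labelled Ctr and named C1, C3 and C3-3. The Hdac1/2-deleted group held 3 mice with the genotype villin-Cre Hdac1-/-; Hdac2-/-, named H1, H5 and H9. The villin promoter drives Cre in the intestinal epithelium, so other cells of these mice keep both genes. All 6 mice were aged 3 months, their background was a mix of 3 strains, and each gave 1 library from EDTA-enriched IEC.

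OXPHOS makes most of the ATP of an absorptive epithelial cell. Complex I takes electrons from NADH and complex II takes them from succinate, and both pass them to coenzyme Q. Complex III hands them on to cytochrome c, complex IV reduces oxygen with them, and complex V uses the resulting proton gradient to make ATP. Most subunits are encoded in the nucleus, made in the cytosol and imported, and a few core subunits of complexes I, III, IV and V are encoded in mitochondrial DNA. Several complex IV subunits and the c-ring of complex V have paralogous genes with different tissue patterns.

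Libraries held 36111035 to 65902344 counts, and values are CPM, the counts of a gene per 1000000 counts of its library, scaled by TMM factors between 0.892 and 1.14. Hdac1 counts were 39.1, 34.5 and 48.8 CPM in the control mice and 3.97, 2.53 and 4.81 CPM in the Hdac1/2-deleted mice. The change of Hdac1 was -3.43 ± 0.26 on the log2 scale (SE, n = 3 per group), with an adjusted p of 2.9e-05 in edgeR's quasi-likelihood test. Hdac2 was at 23.6 to 32.8 CPM in control and 21.4 to 26.6 CPM in Hdac1/2-deleted mice, and the groups overlapped. Its log2 fold change was -0.18 ± 0.17 with an adjusted p of 0.44 in edgeR. The counts are summed over the whole gene and do not show whether the floxed exons were transcribed, so for Hdac2 the genotype rests on the labels. Epithelial markers were present in every library, with a summed level of 17067 to 19311 CPM in control and 14001 to 17194 CPM in Hdac1/2-deleted mice over 10 genes, of which 2 fell. The sum of 10 villus enterocyte markers was 85594 to 99522 CPM in control and 34526 to 47242 CPM in Hdac1/2-deleted mice, where 5 fell and 1 rose. Immune markers summed to 51.3 to 155 and 42.0 to 80.5 CPM, with 1 of 9 tested higher and 2 lower, and proliferating crypt markers to 279 to 481 and 293 to 501 CPM, with 1 of 10 higher. Stromal, vascular and muscle markers summed to 14.4 to 67.6 CPM in control and to at most 14.8 CPM in Hdac1/2-deleted mice, and 3 of 9 tested fell, all of them muscle genes. Leaving out 1 mouse gave 0 to 5 immune markers lower (5 without C1, 0 without C3, C3-3, H1 or H5), 0 to 2 epithelial markers lower (0 without C3-3 or H5) and 1 to 3 stromal, vascular and muscle markers lower (1 without H1 or H9). The muscle gene Myh11 was at 25.4, 12.6 and 0.45 CPM in C1, C3 and C3-3, at 0.013 CPM in H1 and at 0 in H5 and H9. In such bulk samples, fewer cells of a type and less RNA per cell cannot be told apart, and the part of the enterocyte markers in the differences below was not tested. Y-linked counts were found in C3 (3082 counts) and were at 13 or fewer in each other library.

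Most OXPHOS subunit RNAs differed little between the groups, and a small set moved in both directions. Of the 85 genes, 81 had enough counts to be tested. At an adjusted p of at most 0.05, 6 of the 81 rose and 12 fell in Hdac1/2-deleted IEC, which is 22.2% of them. Over all 15618 genes tested, 40.8% were called, 20.5% higher and 20.3% lower. With a change of at least 2-fold in addition, 1 member was higher and 3 were lower, against 12.4% and 12.7% of all genes. The CPM ranges of the groups did not overlap for 31 of the 81 members, against 53.2% of all genes tested. Within 1.5-fold of the control level were 86.4% of the members and 49.4% of all genes. The median log2 fold change was -0.06 over the members and -0.01 over all genes, and 35 of the 81 members had a positive value. The median was -0.05 in complex I, 0.04 in complex II, -0.04 in complex III, -0.09 in complex IV and -0.14 in complex V.

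**Figure D1:**
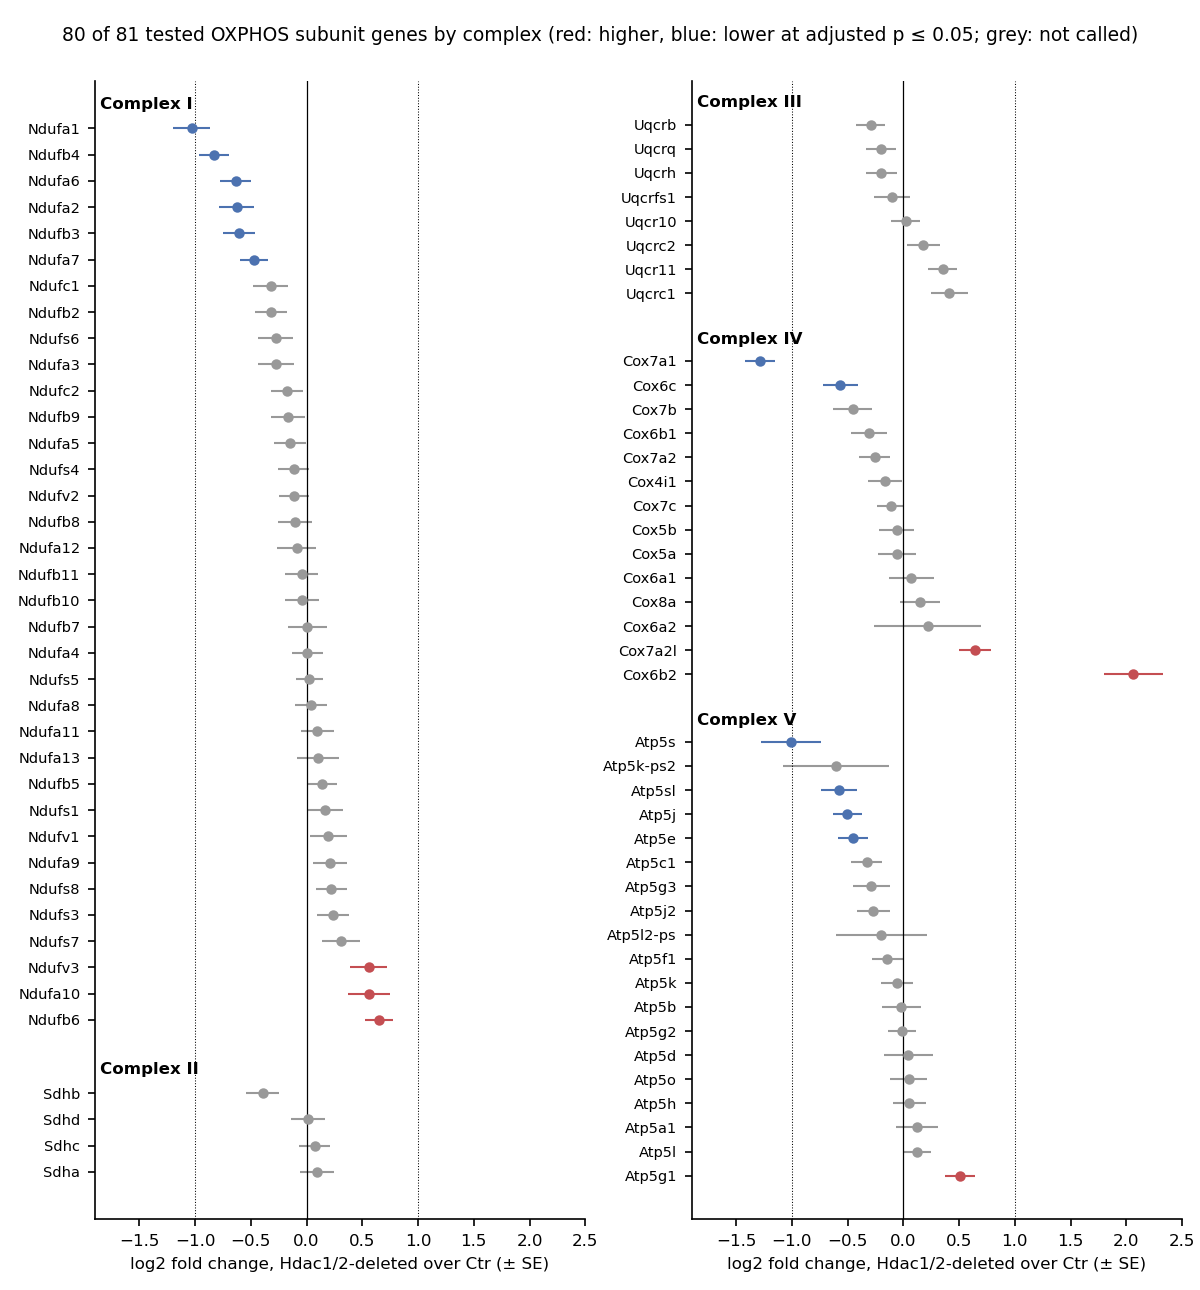
Log2 fold change of 80 of the 81 tested OXPHOS genes (x axis, Hdac1/2-deleted over control, point ± SE, n = 3 per group), listed by complex on the y axis, with dotted lines at 2-fold. Most of the points lie near 0, and Cox7a1 and Cox6b2, both of complex IV, lie farthest out on either side.

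The direction of the whole set depended on the scaling. Scaling by library totals alone shifted the median of all genes by 0.19 on the log2 scale, to 0.18, and that of the members to 0.13. It called 15 of the 81 members higher and 6 lower, beside 4024 higher and 2301 lower of all 15618 genes tested. The summed level of all members was 22840 to 28043 CPM in control and 23502 to 25966 CPM in Hdac1/2-deleted mice under TMM, a ratio of 0.993. As a plain share of library totals the sums were 22852 to 25004 and 26279 to 27322 CPM, a ratio of 1.13, and the groups did not overlap. Beside this, the 20 genes with the highest counts held between 16.0% and 19.2% of a control library and between 11.8% and 12.4% of an Hdac1/2-deleted library.

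Of the 18 called members, 9 kept the call under each of 15 other settings, namely Cox7a1, Cox6b2, Cox7a2l, Ndufa1, Ndufa2, Ndufa6, Ndufb3, Ndufb4 and Ndufb6. In 6 of these 9 the gene belongs to the accessory subunits of complex I that are described next.

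In complex I, the 9 called genes were all accessory subunits. They made up 32.1% of the accessory subunits, under the 40.8% called over all genes tested. Of the 7 nuclear-encoded core subunits, most of which carry the flavin or iron-sulfur clusters or bind coenzyme Q, 6 had a positive log2 fold change. None of the 7 was called by edgeR or DESeq2, and 0 had an unadjusted p under 0.05. When libraries were scaled by their totals alone, 5 were called higher, beside 4024 of all 15618 genes tested. The median log2 fold change of all genes was then 0.18. Ndufv1, the flavin-binding subunit that receives electrons from NADH, was at 256, 363 and 287 CPM in control and 316, 373 and 348 CPM in Hdac1/2-deleted mice, and the groups overlapped. Its log2 fold change was 0.20 ± 0.17 with an adjusted p of 0.38 in edgeR.

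Among the 28 accessory subunits, which surround the core and support its assembly and stability, 3 rose and 6 fell, and the median was -0.11. Ndufa1, a small X-linked membrane-arm subunit required for complex I assembly (chromosome X, 37187588 to 37191163, GRCm38), was at 123, 174 and 137 CPM in control and 66.8, 66.9 and 78.5 CPM in Hdac1/2-deleted mice. The Hdac1/2-deleted values all lay under the control values, and the level was 2.04-fold lower. The log2 fold change was -1.03 ± 0.16 with an adjusted p of 0.0012 in edgeR. Without C3, the library with Y-linked counts, the adjusted p was 0.0026 in edgeR and the log2 fold change was -0.87, under the 2-fold limit. It was -0.99 without H1 and -0.99 without H5, and -0.84 with library totals alone.

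Ndufb4, an accessory subunit of the membrane arm, was at 28.1, 29.8 and 29.1 CPM in control and 16.6, 15.5 and 16.7 CPM in Hdac1/2-deleted mice. The values within each group lay close together and the groups stood apart. The log2 fold change was -0.83 ± 0.14 with an adjusted p of 0.0014 in edgeR. Ndufa6, an LYR-motif protein of the peripheral arm, was at 186, 210 and 167 CPM in control and 118, 123 and 121 CPM in Hdac1/2-deleted mice. Again no values crossed, and the log2 fold change was -0.64 ± 0.14 with an adjusted p of 0.0055 in edgeR. The other 3 accessory subunits that fell were Ndufa2 at -0.63, Ndufb3 at -0.60 and Ndufa7 at -0.47 on the log2 scale. Exons of Ndufa2 overlap those of Tmco6 on the other strand. The call of Ndufa7 was lost without C3-3 (adjusted p = 0.072 in edgeR) and without H9 (adjusted p = 0.058 in edgeR), and with library totals alone (adjusted p = 0.15 in edgeR).

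Ndufb6, which like Ndufb4 sits in the membrane arm, went the other way. It was at 54.2, 64.2 and 54.2 CPM in control and 91.7, 92.2 and 87.1 CPM in Hdac1/2-deleted mice, so no values crossed. The log2 fold change was 0.65 ± 0.13 with an adjusted p of 0.0037 in edgeR. Its exons overlap Smim27 on the other strand. Ndufa10, a membrane-arm subunit related to nucleoside kinases, rose from 199, 294 and 239 CPM to 296, 400 and 382 CPM. The highest control value and the lowest Hdac1/2-deleted value lay side by side, and the log2 fold change was 0.56 ± 0.19 with an adjusted p of 0.042 in edgeR. Ndufv3, an accessory subunit at the NADH-binding tip, had a log2 fold change of 0.56 ± 0.17 with an adjusted p of 0.025 in edgeR. Both calls were lost without C1, C3-3, H5 or H9, with adjusted p between 0.10 and 0.13 for Ndufa10 and between 0.058 and 0.080 for Ndufv3 in edgeR, and that of Ndufa10 also with upper-quartile factors (adjusted p = 0.060 in edgeR). Ndufa4, named for complex I but found in complex IV, was at 256 ± 17.6 CPM and 258 ± 26.3 CPM (SD, n = 3). Ndufa4l2, its paralog known to be induced by hypoxia, had 2 to 3 counts per control library and 0 to 1 per Hdac1/2-deleted library. All of these are at or under 3 counts, so its level could not be compared.

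Complex II, which is also an enzyme of the tricarboxylic acid cycle, had 0 of 4 genes called by edgeR or DESeq2. In edgeR 40.8% of all genes tested were called. An unadjusted p under 0.05 in edgeR was found for 1 complex II gene. That gene was Sdhb, the iron-sulfur subunit, at 370, 480 and 447 CPM in control and 324, 341 and 322 CPM in Hdac1/2-deleted mice. All Hdac1/2-deleted values were below the control values, with a log2 fold change of -0.39 ± 0.15 and an adjusted p of 0.063 in edgeR. Sdha, the flavoprotein that oxidizes succinate, was at 741 ± 78.8 and 792 ± 36.1 CPM, and the membrane anchors Sdhc and Sdhd were at 316 ± 23.4 and 332 ± 24.9 CPM and at 439 ± 34.2 and 442 ± 55.8 CPM (SD, n = 3). In these 3 genes the groups overlapped. Without C1, 1 complex II gene passed the threshold, and the same happened with upper-quartile factors.

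Complex III had 0 of 8 genes called by edgeR, beside 40.8% of all genes tested. It had 2 genes with an unadjusted p under 0.05 in edgeR, and 2 were called higher by DESeq2. Uqcrc1, a core subunit of the matrix side, was at 700, 931 and 823 CPM in control and 1023, 1166 and 1077 CPM in Hdac1/2-deleted mice. No values crossed, with a log2 fold change of 0.41 ± 0.17 and an adjusted p of 0.077 in edgeR. Uqcr11, a small accessory subunit, was named after its values were seen and had a log2 fold change of 0.36 ± 0.13 with an adjusted p of 0.056 in edgeR. Uqcrc2, the other core subunit, and Uqcrh, the hinge protein that binds cytochrome c1, had overlapping groups, at 431 ± 22.2 against 488 ± 50.7 CPM and at 448 ± 20.7 against 391 ± 33.3 CPM (SD, n = 3).

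Of the 81 tested members, the largest changes in either direction were in complex IV, and both were in genes that have a paralog with another tissue pattern. Cox7a1 is the COX7A isoform best known from heart and skeletal muscle, and Cox7a2 is the isoform found in most tissues. Cox6b2 is the COX6B isoform best known from testis, and Cox6b1 is the general isoform. The 2-fold calls of structural subunits were those of Cox7a1, Cox6b2 and Ndufa1. The RefSeq promoters of these genes are therefore shown, beside those of the paralogs Cox7a2 and Cox6b1, which were not called. Each holds 250 bases before and 50 after the annotated start on GRCm38.p6, written 5′ to 3′ on the gene's strand, and capitals mark CpG dinucleotides. They are chr7:30183921-30184220 (+ strand) for Cox7a1, chr9:79759804-79760103 (- strand) for Cox7a2, chr7:4753045-4753344 (- strand) for Cox6b2, chr7:30626065-30626364 (- strand) for Cox6b1 and chrX:37191189-37191488 (- strand) for Ndufa1.
Cox7a1: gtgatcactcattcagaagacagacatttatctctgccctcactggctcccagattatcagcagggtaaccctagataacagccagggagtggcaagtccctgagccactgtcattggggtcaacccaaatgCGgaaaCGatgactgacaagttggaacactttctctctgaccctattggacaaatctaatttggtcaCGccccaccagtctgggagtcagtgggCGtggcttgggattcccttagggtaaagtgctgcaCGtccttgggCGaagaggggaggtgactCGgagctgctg
Cox7a2: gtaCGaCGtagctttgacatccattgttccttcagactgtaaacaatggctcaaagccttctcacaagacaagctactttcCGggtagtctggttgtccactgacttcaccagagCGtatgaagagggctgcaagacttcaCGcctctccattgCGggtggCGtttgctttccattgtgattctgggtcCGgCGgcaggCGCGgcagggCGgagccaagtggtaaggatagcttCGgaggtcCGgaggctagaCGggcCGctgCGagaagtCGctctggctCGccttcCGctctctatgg
Cox6b2: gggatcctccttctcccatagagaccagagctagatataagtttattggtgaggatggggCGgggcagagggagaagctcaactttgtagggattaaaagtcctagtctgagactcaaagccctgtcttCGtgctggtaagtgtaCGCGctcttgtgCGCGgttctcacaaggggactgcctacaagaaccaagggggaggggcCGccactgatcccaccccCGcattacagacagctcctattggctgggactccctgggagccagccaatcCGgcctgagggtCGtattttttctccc
Cox6b1: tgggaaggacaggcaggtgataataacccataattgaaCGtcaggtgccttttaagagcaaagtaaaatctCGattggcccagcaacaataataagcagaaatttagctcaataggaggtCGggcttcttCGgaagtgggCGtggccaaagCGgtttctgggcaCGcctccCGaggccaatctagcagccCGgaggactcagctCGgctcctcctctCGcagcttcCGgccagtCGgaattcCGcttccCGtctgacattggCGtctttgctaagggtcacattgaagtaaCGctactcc
Ndufa1: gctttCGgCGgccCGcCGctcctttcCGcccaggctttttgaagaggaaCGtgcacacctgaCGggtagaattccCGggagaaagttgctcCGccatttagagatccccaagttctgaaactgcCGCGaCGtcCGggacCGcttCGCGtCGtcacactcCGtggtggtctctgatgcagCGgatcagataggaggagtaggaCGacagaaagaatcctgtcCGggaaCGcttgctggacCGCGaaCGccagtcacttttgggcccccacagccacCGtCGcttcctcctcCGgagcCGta

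The promoter of Cox7a1 holds 7 CpG and that of Cox7a2 holds 20. Cox6b2 and Cox6b1 have 10 and 17, and Ndufa1 has 29. The median over 73 promoters of 67 matched members was 19, and that over all 32851 promoters of the table was 7. The count of Cox7a1 equals the median of all promoters and lies near the low end of the member promoters, which ran from 5 to 43.

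Cox7a1 (chromosome 7, 30184144 to 30186078) was at 86.9, 108 and 98.5 CPM in control and 39.9, 39.2 and 41.0 CPM in Hdac1/2-deleted mice. The level was 2.44-fold lower and the Hdac1/2-deleted mice lay within a narrow range well below every control mouse. The log2 fold change was -1.29 ± 0.13 with an adjusted p of 0.00012 in edgeR. The muscle genes Myh11, Des and Acta2 were at 0.45, 0.66 and 0.60 CPM in C3-3, and Cox7a1 was at 98.5 CPM in that library, between its levels in C1 and C3. Cox6a2, the muscle isoform of another complex IV subunit, was at 0.37 ± 0.19 and 0.43 ± 0.10 CPM (SD, n = 3), and its groups overlapped. The part of muscle cells in the change of Cox7a1 was not tested.

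Cox7a2 was at 248, 303 and 276 CPM in control and 223, 232 and 236 CPM in Hdac1/2-deleted mice. These groups did not overlap, but the change of -0.26 ± 0.14 on the log2 scale had an adjusted p of 0.17 in edgeR. Per kilobase of exon, Cox7a1 made up 38.2%, 38.5% and 38.6% of the 2 isoforms together in control mice and 23.9%, 22.9% and 23.5% in Hdac1/2-deleted mice. The share was nearly the same in the 3 mice of each group.

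Cox6b2 (chromosome 7, 4751792 to 4753094) had 150, 207 and 179 counts in control and 753, 508 and 955 counts in Hdac1/2-deleted mice. This is 2.26, 3.73 and 3.37 CPM against 10.2, 13.4 and 15.5 CPM, a 4.17-fold higher level without overlap. The log2 fold change was 2.06 ± 0.27 with an adjusted p of 0.00042 in edgeR. Cox6b1 stayed far above it, at 477 ± 58.5 CPM in control and 385 ± 36.7 CPM in Hdac1/2-deleted mice (SD, n = 3), with a log2 fold change of -0.31 ± 0.16 and an adjusted p of 0.15 in edgeR. Cox6b2 made up 0.41% of the 2 isoforms per kilobase in control and 2.10% in Hdac1/2-deleted mice (means, n = 3) and was the minor isoform in every mouse.

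**Figure D2:**
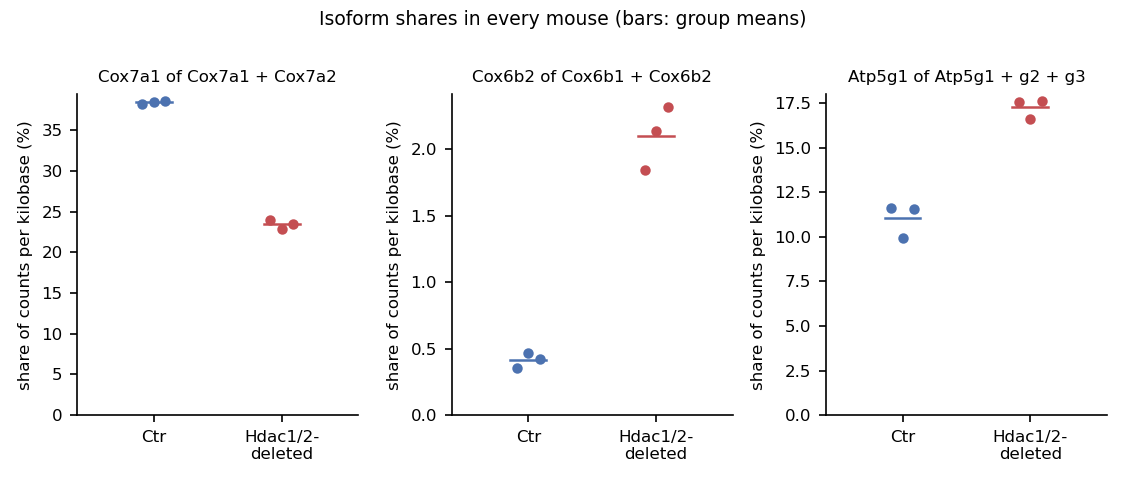
Share of a named isoform among its paralogs (y axis, percent of counts per kilobase of exon) in each control (blue) and Hdac1/2-deleted (red) mouse, with bars at group means. The groups do not overlap in any of the 3 panels: 38.5% against 23.5% for Cox7a1, 0.41% against 2.10% for Cox6b2 and 11.0% against 17.3% for Atp5g1.

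Cox7a2l, a relative of the COX7A subunits that links complexes III and IV in supercomplexes, rose. It was at 110, 135 and 136 CPM in control and 195, 214 and 187 CPM in Hdac1/2-deleted mice. Every Hdac1/2-deleted mouse was above every control mouse, with a log2 fold change of 0.65 ± 0.14 and an adjusted p of 0.0063 in edgeR. Cox6c, a small single-span subunit, fell from 268, 295 and 253 CPM to 208, 151 and 193 CPM. Exons of Cox6c overlap those of Vps13b on the other strand. The log2 fold change of Cox6c was -0.56 ± 0.16 with an adjusted p of 0.020 in edgeR. That call was lost without C3, H5 or H9, with adjusted p of 0.056, 0.069 and 0.052 in edgeR, and with library totals alone, with an adjusted p of 0.10 in edgeR.

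The other complex IV genes showed no call. Over all 14 tested complex IV genes, 2 rose and 2 fell, so 28.6% were called, under the 40.8% of all genes tested. Of the 10 main isoforms, Cox6c alone was called, 2 had a positive log2 fold change, and the median was -0.14. Those with the highest CPM were Cox4i1 (891 ± 73.7 and 795 ± 54.8 CPM), Cox6a1 (736 ± 146 and 773 ± 131 CPM) and Cox8a (507 ± 70.2 and 562 ± 89.6 CPM; SD, n = 3), and their groups overlapped. Cox7b was at 287 to 304 CPM in control and 183 to 271 CPM in Hdac1/2-deleted mice, with a log2 fold change of -0.45 ± 0.17 and an adjusted p of 0.065 in edgeR. It passed the threshold without H1, whose value of 271 CPM was the highest of its group. Cox4i2, the isoform of Cox4i1 known from lung and hypoxia, had 2, 4 and 3 counts in control and 6, 6 and 14 counts in Hdac1/2-deleted mice and was too low to be tested.

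**Figure D3:**
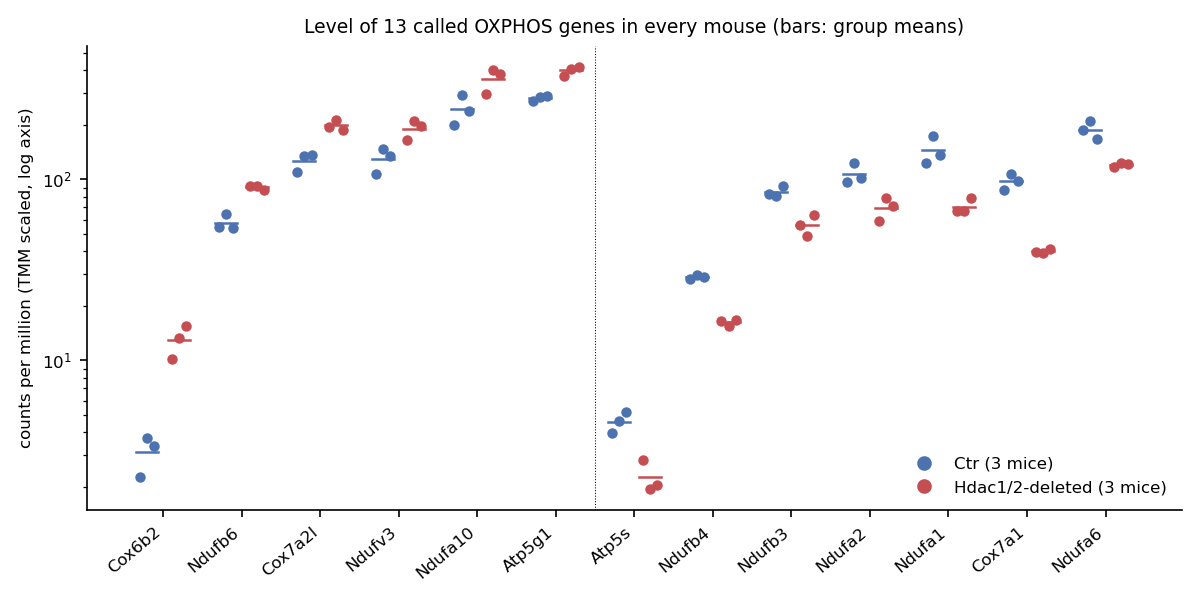
Level of 13 called OXPHOS genes in each control (blue) and Hdac1/2-deleted (red) mouse, in CPM on a log axis, with bars at group means; genes that rose stand left of the dotted line. The groups of 3 mice do not overlap for any of these genes, nor for 53.2% of all genes tested. The 13 genes were picked among the called ones, so this is not a separate result. Cox6b2 and Atp5s lie at the lowest levels.

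In complex V, 1 of 19 tested genes rose and 4 fell, so 26.3% were called, under the 40.8% of all genes tested. Of these 5 genes, 3 encode structural subunits, namely Atp5e, Atp5j and Atp5g1. With library totals alone 0 were lower, and leaving out 1 mouse left 1 to 4 lower, with 1 without C3-3 or H9 and 2 without C3 or H1. Atp5b, the catalytic beta subunit and the member with the highest CPM, was at 2803, 3460 and 2996 CPM in control and 3041, 3043 and 3067 CPM in Hdac1/2-deleted mice. Atp5a1, the alpha subunit, was at 2475 ± 354 and 2694 ± 294 CPM (SD, n = 3). In both genes the groups overlapped, with log2 fold changes of -0.02 ± 0.17 and 0.12 ± 0.19. Atp5e, the epsilon subunit of the F1 head, had a log2 fold change of -0.45 ± 0.13 with an adjusted p of 0.023 in edgeR. Atp5j, the coupling factor of the peripheral stalk, was at 209, 220 and 219 CPM in control and 162, 142 and 153 CPM in Hdac1/2-deleted mice, with the groups apart. Its log2 fold change was -0.50 ± 0.13 with an adjusted p of 0.012 in edgeR, and its exons overlap those of Gabpa on the other strand. The call of Atp5e was lost without C3-3 (0.093), C3 (0.051), H1 (0.071) or H9 (0.091), given as adjusted p in edgeR, and with library totals alone it was lost for Atp5e (0.13) and Atp5j (0.091). Atp5c1, the gamma subunit of the central stalk, was named after its values were seen. It was at 502, 507 and 525 CPM in control and 436, 374 and 414 CPM in Hdac1/2-deleted mice, with the groups apart. The change was -0.33 ± 0.14 on the log2 scale with an adjusted p of 0.091 in edgeR, and it was called with upper-quartile factors (adjusted p = 0.048 in edgeR).

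The c-ring subunit is made from 3 genes that encode the same mature protein with different import sequences. Atp5g1 was at 272, 285 and 289 CPM in control and 374, 408 and 420 CPM in Hdac1/2-deleted mice, with all Hdac1/2-deleted values higher. Its log2 fold change was 0.50 ± 0.13 with an adjusted p of 0.015 in edgeR, and 0.056 without H9. Atp5g2 was at 80.9 ± 2.11 and 80.2 ± 8.48 CPM. Atp5g3, the most abundant of the 3, was at 814, 1041 and 879 CPM in control and 683, 792 and 768 CPM in Hdac1/2-deleted mice, with a log2 fold change of -0.29 ± 0.16 and an adjusted p of 0.19 in edgeR. Per kilobase, Atp5g1 made up 11.0% ± 0.98 of the 3 genes in control and 17.3% ± 0.56 in Hdac1/2-deleted mice (SD, n = 3), and Atp5g3 made up 79.7% ± 1.69 and 72.6% ± 0.15.

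Atp5s and Atp5sl carry the symbols of complex V but are not structural subunits of the enzyme, and Atp5sl is known as an assembly factor of complex I. Atp5s (chromosome 12, 69724950 to 69744660) was at 3.95, 4.63 and 5.19 CPM in control and 2.83, 1.95 and 2.05 CPM in Hdac1/2-deleted mice. It was 2.01-fold lower without overlap, with a log2 fold change of -1.01 ± 0.27 and an adjusted p of 0.015 in edgeR. The adjusted p in edgeR was 0.063 without C3-3 and 0.056 without H9, and the log2 fold change was then -0.90 and -0.93. It was -0.80 with an adjusted p of 0.053 in edgeR when library totals alone were used. Without H5 it was -0.90 with an adjusted p of 0.0497 in edgeR. Atp5sl fell by 0.58 ± 0.16 on the log2 scale, with an adjusted p of 0.019 in edgeR that ran from 0.056 to 0.071 without C3-3, C3, H1 or H9 and was 0.070 with library totals alone. Of the 4 pseudogenes, Atp5k-ps2 and Atp5l2-ps were tested and not called, and Atp5l-ps1 and Atp5l-ps2 were too low. Leaving out the pseudogenes and the 4 genes that encode no structural subunit left 5 higher and 10 lower of 76 tested. Many OXPHOS genes have processed pseudogenes elsewhere in the genome, and how reads shared with them were counted is not given in the sources used here.

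Levels differed between subunits far more than between groups. Per kilobase of exon, the highest control levels were those of Cox6a1 (1048 ± 207 CPM per kilobase) and Cox8a (819 ± 113), followed by Atp5a1 (790 ± 113) and Atp5b (728 ± 79.7). Cox8a, Atp5a1 and Atp5b did not differ beyond their SD. Ndufa1 was the highest complex I gene in control mice at 345 ± 62.3 CPM per kilobase and was at 169 ± 16.1 in Hdac1/2-deleted mice. In complex II, Sdhd was the highest at 357 ± 27.8 in control, while Sdhb (193 ± 25.3) and Sdha (180 ± 19.1) overlapped. The lowest structural subunits of the general set were Ndufb4 at 15.1 ± 0.42 CPM per kilobase and Ndufb2, which was named after its values were seen, at 10.01 ± 1.29. Exon length here is the union of all annotated exons, so genes with long rare transcripts are set low.

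The 13 subunits encoded in mitochondrial DNA were also examined, since complexes I, III, IV and V hold products of both genomes. None was called by edgeR, 1 had an unadjusted p under 0.05, and DESeq2 called 2 lower. Without C1 edgeR called 2 lower, and without H9 it called 1. The median log2 fold change was -0.45, and 12 of 13 values were negative. mt-Co1, the catalytic subunit of complex IV, was at 10888, 32493 and 18351 CPM in control and 5268, 9462 and 14872 CPM in Hdac1/2-deleted mice. The mice of each group differed widely and the groups overlapped. Its log2 fold change was -1.06 ± 0.48 with an adjusted p of 0.11 in edgeR. mt-Cytb, the cytochrome b of complex III, was at 4978 to 11580 CPM in control and 2481 to 6537 CPM in Hdac1/2-deleted mice, with a log2 fold change of -0.97 ± 0.41 and an adjusted p of 0.091 in edgeR. mt-Nd4 of complex I had a log2 fold change of -0.90 ± 0.45 with an adjusted p of 0.15 in edgeR.

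The other complex I genes of mitochondrial DNA lay nearer 0, with mt-Nd1 at -0.21, mt-Nd2 at -0.36 and mt-Nd5 at -0.38 on the log2 scale. mt-Nd6, which is read from the other strand of the mitochondrial genome, was at -0.18. The remaining genes had low counts, with control means of 16.7 CPM for mt-Co2, 10.6 for mt-Co3, 4.32 for mt-Atp6, 3.69 for mt-Nd4l, 0.54 for mt-Atp8 and 0.26 for mt-Nd3. Their log2 fold changes were -0.65, -0.45, -0.73, -0.73, 0.03 and -0.23, and the median over the 13 genes includes them. How reads that match more than 1 place in the genome were counted is not given in the sources used here. These low counts therefore need not show low RNA levels. The 13 genes together took 23115, 59326 and 39586 CPM in C1, C3 and C3-3 and 12217, 21193 and 34978 CPM in H1, H5 and H9. The SE of these genes ran from 0.39 to 0.57 on the log2 scale. Without mitochondrial genes in the library sizes, 6 members were higher and 12 were lower, as with them.

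**Figure D4:**
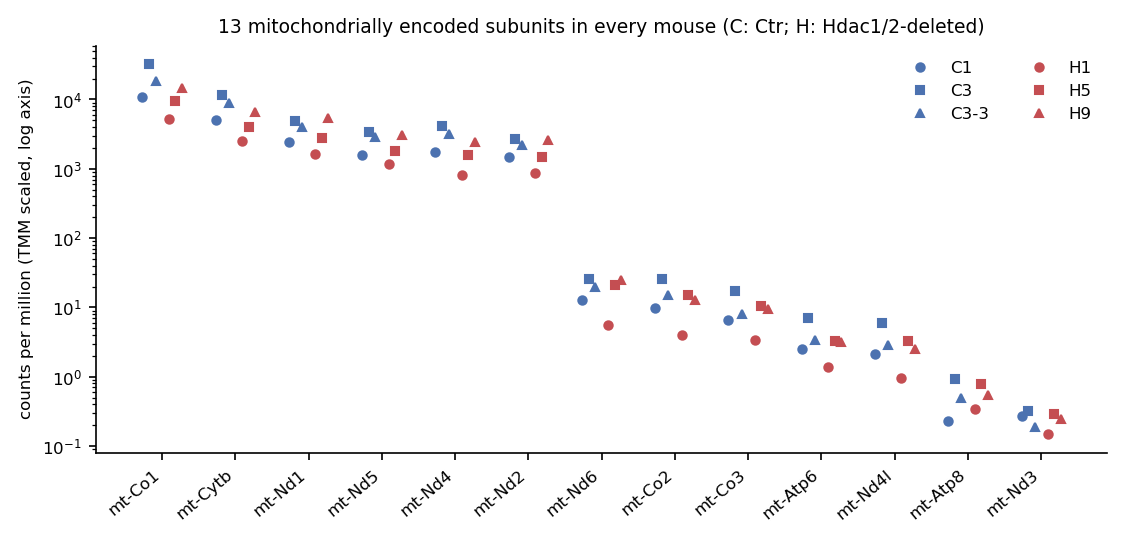
Level of the 13 mitochondrially encoded subunits (x axis, ordered by mean level) in each mouse, in CPM on a log axis, with 1 marker per mouse, control in blue and Hdac1/2-deleted in red. In every gene the groups overlap, and C3 is the highest control and H1 the lowest Hdac1/2-deleted mouse.

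Genes that work beside the OXPHOS subunits were counted in the same way. Of 9 genes for subunits, electron carriers or an inhibitory factor, whose symbols the rule does not cover, 2 fell and 0 rose. So 22.2% were called, beside 40.8% of all genes tested. With library totals alone 2 rose and 1 fell. Leaving out 1 mouse gave 0 to 1 higher, with 1 without C3, and 1 to 3 lower. Etfdh, which passes electrons from fatty acid and amino acid oxidation to coenzyme Q, was at 164, 181 and 149 CPM in control and 69.0, 44.7 and 59.9 CPM in Hdac1/2-deleted mice. All Hdac1/2-deleted values were below the control values, with a log2 fold change of -1.51 ± 0.18 and an adjusted p of 0.00029 in edgeR. The second was Atpif1, the inhibitory factor of ATP synthase, which was named after its values were seen, at -0.51 ± 0.13 with an adjusted p of 0.013 in edgeR, which was 0.056 without C3-3 and 0.070 with library totals alone.

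Of 45 assembly factors, 13 rose and 3 fell, so 35.6% were called, beside 40.8% of all genes tested. Bcs1l, which inserts the Rieske protein into complex III, was at 8.81, 7.67 and 7.39 CPM in control and 21.5, 25.4 and 19.1 CPM in Hdac1/2-deleted mice. The groups stood apart, with a log2 fold change of 1.47 ± 0.18 and an adjusted p of 0.00031 in edgeR. The complex I assembly factor Ndufaf6 rose by 1.65 ± 0.24. Sco2, a copper chaperone of complex IV, went the other way, from 40.9, 68.1 and 46.5 CPM to 11.4, 18.03 and 18.4 CPM, with a log2 fold change of -1.70 ± 0.25 and an adjusted p of 0.00088 in edgeR.

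Mitochondrial ribosomal proteins translate the subunits encoded in mitochondrial DNA. Of 80 tested genes with Mrpl or Mrps symbols, 41 rose and 4 fell, which is 56.2% of them, beside 40.8% of all genes tested. The median log2 fold change was 0.44. The 80 include Mrpl23-ps1, Mrps36-ps1 and Mrpl48-ps, which are named as pseudogenes and were not called. Without C1, C3-3, H5 or H9 the number lower was 2. Mrps6 (1.93 ± 0.20), Mrps28 (1.69 ± 0.15), Mrpl38 (1.499 ± 0.16), Mrps2 (1.49 ± 0.14), Mrps27 (1.33 ± 0.19) and Mrps7 (1.30 ± 0.13) had the largest changes. A further 4 rose at least 2-fold, namely Mrps18b, Mrpl41, Mrpl47 and Mrps26, with log2 fold changes of 1.14, 1.12, 1.11 and 1.08. The mean of their summed level was 2652 ± 99.5 CPM in control and 3683 ± 72.4 CPM in Hdac1/2-deleted mice (SD, n = 3), while that of the OXPHOS members was 25274 ± 2618 and 25090 ± 1377 CPM. The difference between the lists was not tested.

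Of 22 import genes, 12 rose and 0 fell by edgeR, while DESeq2 called 13 higher and 1 lower, and 13 had an unadjusted p under 0.05 in edgeR. In edgeR 54.5% of these genes were called, beside 40.8% of all genes tested. Without C3, H1, H5 or H9, 1 was lower in edgeR. Tomm40, the channel of the outer membrane, rose by 1.58 ± 0.14, Timm50 of the inner membrane by 1.18 ± 0.14, and Tomm6 by 1.16 ± 0.30 on the log2 scale. The call of Tomm6 was lost without C3-3 (adjusted p = 0.053 in edgeR) and without H9 (adjusted p = 0.0501 in edgeR). Of 17 genes of the tricarboxylic acid cycle and pyruvate dehydrogenase, 4 rose and 0 fell by edgeR and by DESeq2, led by Pdhb at 1.17 ± 0.16. Of 11 genes of coenzyme Q synthesis, 3 rose and 0 fell by both tools, led by the methyltransferase Coq5 at 1.11 ± 0.14. By edgeR 23.5% of the tricarboxylic acid cycle list and 27.3% of the coenzyme Q list were called, under the 40.8% of all genes tested. Scaled by library totals alone, 10 genes of the tricarboxylic acid cycle list rose in place of 4. Over all 15618 genes tested, 4024 then rose in place of 3198.

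Of 20 regulators of mitochondrial gene expression and biogenesis, 6 rose and 3 fell, so 45.0% were called, beside 40.8% of all genes tested. Ppargc1b, a coactivator of mitochondrial genes, rose by 1.52 ± 0.18 and its relative Pprc1 by 1.001 ± 0.26, with adjusted p of 0.00029 and 0.013 in edgeR. The call of Pprc1 was lost without H5 (adjusted p = 0.053 in edgeR). Lrpprc, which stabilizes mitochondrial mRNAs, rose by 1.198 ± 0.14. Ppargc1a, Esrra and Polg2, named after their values were seen, were the 3 that fell, by 0.59, 0.39 and 0.78 on the log2 scale, and none of the list fell when libraries were scaled by totals alone. Without any 1 mouse 1 or 2 fell. The call of Esrra was lost in each case, with adjusted p between 0.064 and 0.10 in edgeR, and that of Ppargc1a without C3-3, H5 or H9, with adjusted p between 0.054 and 0.090 in edgeR.

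**Figure D5:**
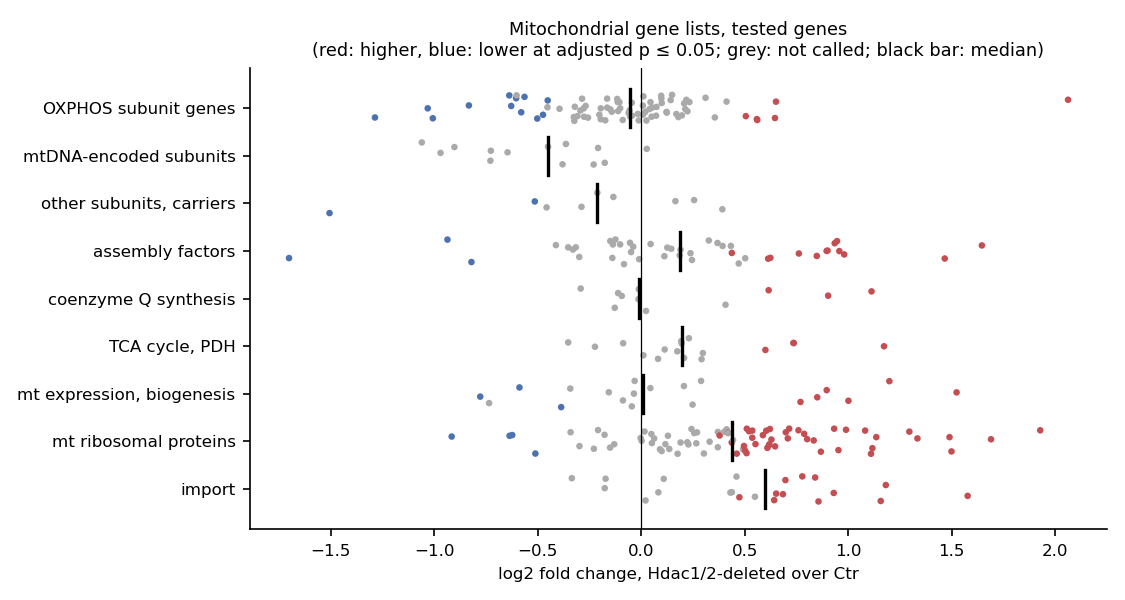
Log2 fold change (x axis) of every tested gene in the OXPHOS set and 8 further mitochondrial lists (y axis), with red and blue for genes called higher and lower, grey for genes not called and a black bar at each median. The OXPHOS median is -0.06, and those of the mitochondrial ribosomal proteins and the import genes are 0.44 and 0.60.

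Shared promoter features of the OXPHOS genes were described from 73 promoters of 67 matched members. The letters GCGCATGCG, bound by NRF1, were found on either strand in 11.0% of them and in 1.75% of all 32851 promoters. The letters CCGGAAG, bound by ETS factors such as GABPA, were in 21.9% and 8.86%, and AAGATGG, bound by YY1, in 17.8% and 6.34%. Matches of different motifs shared no bases in the member promoters. At least 1 of the 3 motifs was found in 27 of 51 matched members that were not called, in 3 of 10 that fell and in 1 of 6 that rose. Of the 5 promoters printed above, that of Cox6b1 holds the ETS letters and the other 4 hold none of the 3. The median CpG count was 18.5 for promoters of members not called, 24 for members that fell and 18 for members that rose.

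Exon length was set beside the changes. Across 76 tested structural subunits, with lengths from 0.419 to 8.09 kilobases, Spearman's rho between length and log2 fold change was 0.20, and across 35 complex I subunits it was 0.34. Over all 13486 tested protein-coding genes it was -0.01. These are descriptions across genes of the same 6 libraries, and genes are not independent replicates. The median log2 fold change of the 19 structural subunits under 1 kilobase was -0.06, and that of the 57 longer ones was -0.04.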

How the data were processed

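Libraries from the IEC RNA of 6 mice (3 control, 3 Hdac1/2-deleted) were made with poly(A) selection and a directional kit. The authors aligned paired reads with STAR to GRCm38, while the submitters' processing notes list mm9, and the counting program, its strand setting and its annotation are not given in the sources used here. The deposited table holds raw counts of reads per gene, which were used here. The lowest total over the 6 samples of any gene is 10. The authors also deposited rounded normalized counts as a score per sample, and log2 fold changes, mean log2 CPM and p-values of their own comparison, none of which were used.

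The test was edgeR's robust quasi-likelihood fit (edgeR 4.0.16, R 4.3.3) over all 6 samples, after filterByExpr, which kept 15618 genes, and TMM scaling (no covariates, prior count 0.125). Each SE was obtained by dividing the absolute log2 fold change by the square root of its F statistic. Benjamini-Hochberg adjustment covered the 15618 genes, with limits of 0.05 and, where stated, 2-fold. With 3 mice per group, each p-value tests the group difference against a spread between mice that edgeR moderates across genes. The steps were tested on simulated data. DESeq2 1.42.0 was an alternative, beside other scalings, filters, prior counts, limits and leaving out each mouse. The members and lists were chosen with earlier results of these data known.

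Named genes were Hdac1 and Hdac2, every member called with 2-fold, the 3 most abundant members of each complex, the 3 largest called changes in each direction per complex, members with paralogous isoforms, the mitochondrially encoded subunits and the 2-fold calls of the other lists. The values of 1 member are not reported here. Lengths (union of exons) and positions came from GENCODE release 21 for mouse (GRCm38), which holds all 85 members, of which exons of 29 overlap another gene and 5 do so on the same strand. Promoters came from RefSeq (GRCm38.p6), matched by symbol or unique synonym. Total counts of 36111035 to 65902344, each multiplied by its TMM factor, put 3 counts, the floor used here, at 0.0405 to 0.0790 CPM. This floor covers counting error only.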

Additional observations from a re-analysis of the deposited data

How the results depend on the processing

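No paired analysis was run because nothing in the labels pairs a control mouse with an Hdac1/2-deleted mouse. Scaling by library totals moved the most results: members called were 15 higher, 6 lower and 1 lower with 2-fold in place of 6, 12 and 3, the medians of complexes I to V became 0.14, 0.24, 0.15, 0.10 and 0.050, the ratio of summed levels became 1.13, and the 8 other lists gave 5 lower in place of 12 and 38 higher with 2-fold in place of 20. Over all 15618 genes tested, scaling by library totals called 4024 higher and 2301 lower. An adjusted p limit of 0.01 left 3 members higher and 5 lower, and 6 genes of the other lists lower. A 1.5-fold limit gave 3 members higher and 7 lower, and 65 and 9 genes of the other lists. DESeq2 gave 4 lower genes with 2-fold in the other lists in place of 2, and it gave no adjusted p for 2 members. Without exon length, the control and Hdac1/2-deleted shares were 26.2% and 14.8% for Cox7a1, 0.64% and 3.24% for Cox6b2, and 22.3% and 32.6% for Atp5g1.

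Leaving out each mouse gave 3 to 6 members higher, 7 to 13 lower and 1 to 3 lower with 2-fold. The lowest counts of 3 and 7 came without H9, and the 1 came without C3 and without H5. The medians ran from -0.087 to 0.053 in complex III and from -0.12 to 0.061 in complex IV, with the highest value of each without C3. The other lists gave 7 to 13 lower, with 7 without C3-3, and 2 to 5 lower with 2-fold, with 5 without C1. Leaving out each mouse for the isoform shares was chosen after seeing the data, and the shares of Cox7a1 then ran from 38.4% to 38.6% in control and from 23.2% to 23.7% in Hdac1/2-deleted mice. No called gene reversed its direction under any alternative. Of the 18 called members 9 lost the call under at least 1 alternative, and of 63 members not called 12 gained it. The number of mice and the low counts of Cox4i2, Ndufa4l2 and 2 pseudogenes limit what could be compared.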
